A study of Mus musculus with 10 samples.

Results

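The messages of 9 genes of the transforming growth factor beta (TGF-beta) pathway were measured in mouse left ventricle: the ligands Tgfb1, Tgfb2 and Tgfb3, the receptors Tgfbr1, Tgfbr2 and Tgfbr3, Ltbp2 of the latent TGF-beta binding protein family, and the response genes Ccn2 and Smad7. They were found by gene symbol in the deposited table, where all 9 are listed among 45706 genes, and all 9 were among the 12350 genes tested. The 10 libraries came from left ventricle tissue after transverse aortic constriction (TAC), surgery that narrows the aorta and so raises the pressure against which the ventricle pumps. Of these, 5 were labelled as placebo, with the treatment given as vehicle, and 5 as osimertinib, a lung cancer drug that blocks EGFR. Both groups had the aortic constriction, and unoperated hearts were not analysed here. Strain, age, sex, dose and the time after surgery of these hearts are not stated in the labels. Nor do they say whether each sample is its own animal, and the p-values cover the spread between samples alone, which may be technical. The design text names the mechanism by which osimertinib harms the heart as the study's question.

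TGF-beta is made as a precursor whose cut-off pro-part stays wrapped around the mature ligand and keeps it latent. Latent TGF-beta binding proteins anchor this complex to the matrix, and integrins, proteases and thrombospondin release it. Free ligand brings the type II receptor (Tgfbr2) together with the type I receptor kinase (Tgfbr1), often after capture by betaglycan (Tgfbr3), and the type I receptor phosphorylates Smad2 and Smad3. In the pressure-loaded heart the pathway is known for turning fibroblasts into matrix-producing myofibroblasts. Ccn2, also named Ctgf, is a matricellular protein induced by TGF-beta and by YAP, and Smad7 is an inhibitory Smad that the pathway induces and that blocks the type I receptor.

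Of the 9 genes, 1 passed the test, and only after libraries were rescaled to one another; 20.8% of all tested genes passed it. That gene, Smad7, was lower in osimertinib, at a fitted 0.763 of the placebo level, and was the only one of the 9 whose groups did not overlap, against 12.5% of all tested genes. The fitted folds, which come from means of log2 values, were 1.54 for Tgfb2, 1.37 for Tgfbr3 and 1.70 for Ccn2, and none of these passed. Tgfb1, Tgfb3, Tgfbr1 and Ltbp2 overlapped widely between the groups. Within libraries, the ratio of Tgfb2 to Tgfb1 and that of Tgfbr2 to Tgfbr1 were both higher in every osimertinib library than in any placebo library, 2 of the 7 ratios set out. Of all tested genes, 4.93% had such a ratio to Tgfb1 and 2.31% to Tgfbr1.

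Promoter sequences of these pairs are shown because their ratios separated the groups. No pair whose ratio overlapped is shown beside them, and the part of promoters in the ratios was not tested. Each sequence is the 250 bases before the RefSeq start (build GRCm38.p6), 5′ to 3′ on the gene's strand, at chr7:25686752-25687001 (plus) for Tgfb1, chr1:186705990-186706239 (minus) for Tgfb2, chr4:47352972-47353221 (plus) for Tgfbr1 and chr9:116175364-116175613 (minus) for Tgfbr2. Capitals mark matches on either strand to any of 5 motifs. The TATA box, which places the polymerase, was searched as TATAAA. The Smad box, the short element that Smad proteins bind, was searched as CAGAC. The GC box of Sp1 family factors was searched as GGGCGG. The box of the factor NF-Y was searched as CCAAT. The E-box of helix-loop-helix factors was searched as CACGTG. No motif lies inside another.
Tgfb1: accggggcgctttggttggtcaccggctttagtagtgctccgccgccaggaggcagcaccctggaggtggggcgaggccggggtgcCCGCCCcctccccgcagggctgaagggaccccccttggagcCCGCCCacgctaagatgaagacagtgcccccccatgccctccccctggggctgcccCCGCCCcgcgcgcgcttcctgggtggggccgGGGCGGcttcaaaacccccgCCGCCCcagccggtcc
Tgfb2: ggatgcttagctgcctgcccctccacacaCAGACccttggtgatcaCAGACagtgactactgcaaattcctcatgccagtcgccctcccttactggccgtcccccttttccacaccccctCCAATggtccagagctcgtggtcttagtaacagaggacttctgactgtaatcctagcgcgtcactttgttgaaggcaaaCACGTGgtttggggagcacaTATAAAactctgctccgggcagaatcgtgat
Tgfbr1: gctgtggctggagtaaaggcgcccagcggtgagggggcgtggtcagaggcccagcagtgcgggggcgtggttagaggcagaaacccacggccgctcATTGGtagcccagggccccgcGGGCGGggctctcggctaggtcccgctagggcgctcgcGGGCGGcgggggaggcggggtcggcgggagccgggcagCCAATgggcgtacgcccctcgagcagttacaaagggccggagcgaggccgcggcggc
Tgfbr2: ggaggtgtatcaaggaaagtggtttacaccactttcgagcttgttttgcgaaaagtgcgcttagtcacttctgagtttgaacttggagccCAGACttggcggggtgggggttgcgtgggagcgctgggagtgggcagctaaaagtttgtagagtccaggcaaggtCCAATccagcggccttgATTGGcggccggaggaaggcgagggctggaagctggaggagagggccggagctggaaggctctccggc

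The Tgfb1 window held 5 GC boxes and no match to the other 4 motifs, with a G and C content of 75.2%. The Tgfb2 window, at 53.6%, held a TATA box from 31 to 26 bases before the start, an E-box from 51 to 46 bases before it, 2 Smad boxes, 1 NF-Y box and no GC box. Tgfbr1 (74.8%) had 2 GC boxes and 2 NF-Y boxes, and Tgfbr2 (58.4%) had 2 NF-Y boxes and 1 Smad box. Over 32841 RefSeq windows of this length the median content was 52.4%, and a match was held by 12.4% for the TATA box, 42.2% for the Smad box, 32.7% for the GC box, 33.9% for the NF-Y box and 6.02% for the E-box. Matches describe letters only. RefSeq windows were matched for 5 of the 9 genes, the 4 shown and Ltbp2 (for Tgfbr1, which has a further start downstream, the upstream one is shown), and not for Tgfb3, Tgfbr3, Ccn2 and Smad7.

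Values are reads of a gene per 1000000 (CPM), and unless said otherwise they are CPM rescaled between libraries by the median ratio over tested genes. Estimated depth was 15863265 to 21309296 reads per library. Genes encoded in the mitochondrial genome took 63.35% of placebo library 5 and 31.75% to 48% of the other 9 libraries, so that in the deposited CPM nearly every other gene looks low in that library. The median log2 fold change of all tested genes was 0.27 in the deposited CPM and 0.01 after rescaling, and a deposited fold change is best read against that 0.27. Tests were made with limma, two-sided, with Benjamini-Hochberg adjustment over all tested genes and calls under 0.05; errors of fold changes are moderated standard errors (SE). Ventricular muscle markers were abundant in every library, at a summed 15100 to 37900 rescaled CPM in placebo and 30400 to 53200 in osimertinib, while T cell markers summed to 2.06 or less. Atrial markers summed to 533 to 1430 in placebo and 726 to 4810 in osimertinib, with Bmp10, an atrial ligand, at 0 in all 10 libraries. Nppa had the highest means of the list (698 and 1310), while Myl7 ran from 0 to 269 in placebo and 0.289 to 1150 in osimertinib. Both are named after their values were seen. The mean log2 level of the list was 2.44 to 2.64 in placebo libraries 3 and 4 and osimertinib libraries 3 and 5. In the other libraries it was 4.6 to 8.08.

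Of all tested genes, 20.8% were called, 10.4% higher and 10.5% lower in osimertinib. Among the 9 genes the count was 0 higher and 1 lower, with 4 higher and 1 lower at an unadjusted limma p under 0.05, against 20.2% and 18.1% of all tested genes. Voom on estimated reads called 0 higher and 1 lower, against 1315 and 1318 of all 12350 tested genes. At the unadjusted level it gave 4 and 1, against 20.5% and 18.5% of all tested genes. In the deposited CPM, where 6.74% of genes were called, 6.62% higher and 0.13% lower, none of the 9 was called, and 3 were higher at an unadjusted p under 0.05 against 20.6% of all genes. Groups that did not overlap were found for 12.5% of all genes, 5.72% higher and 6.82% lower, and for 1 of the 9, Smad7, lower. The adjusted calls and the groups without overlap among the 9 genes were thus no more frequent than in the whole table.

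**Figure D1:**
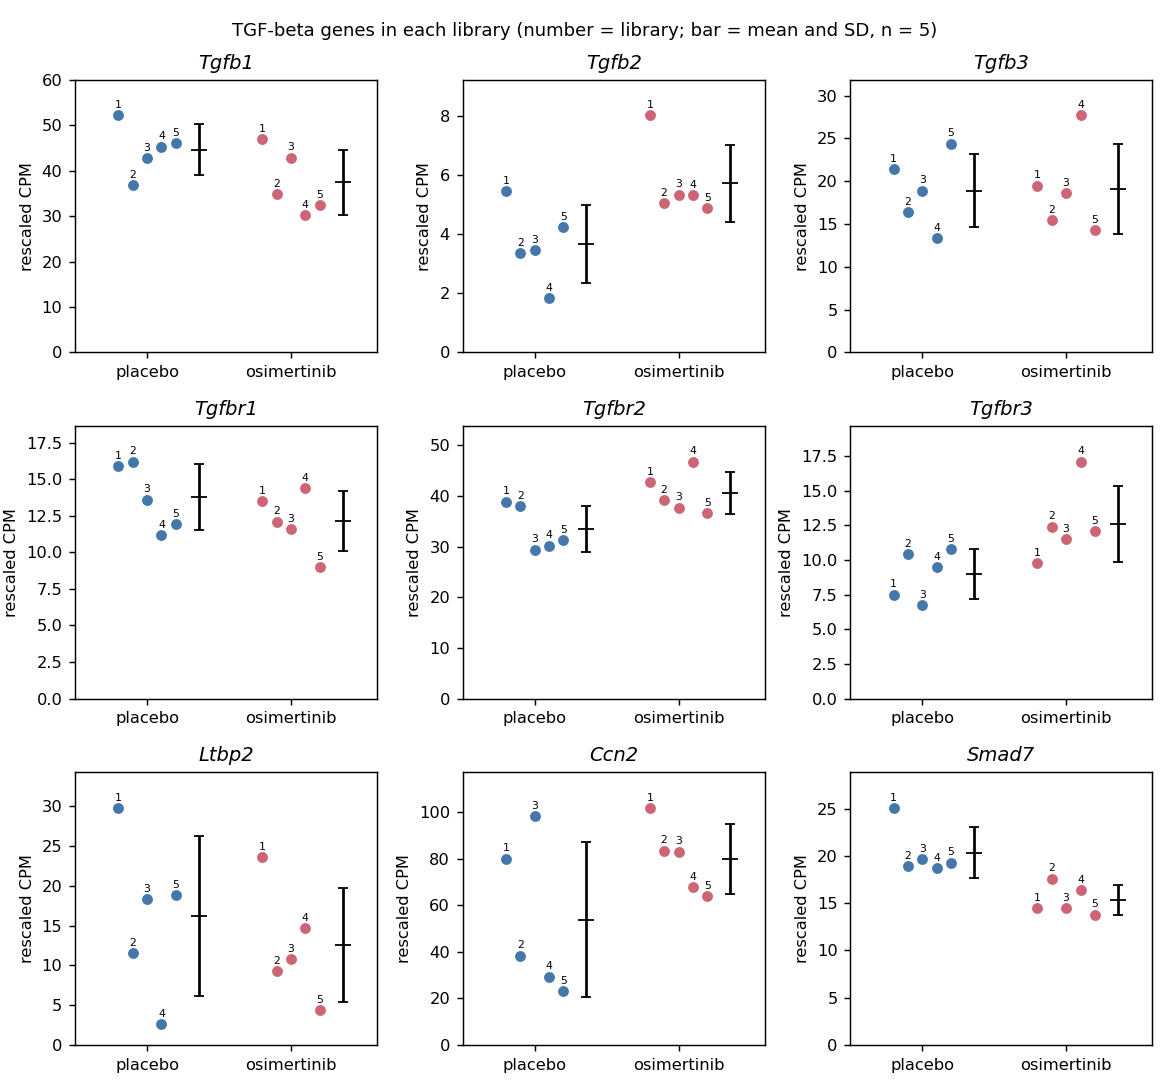
Rescaled CPM of the 9 genes in each library, with the library number above each point and the mean and SD (n = 5) as a bar; every axis starts at 0. Smad7 is the only panel whose groups do not overlap, and Ccn2 and Ltbp2 show the widest spread in placebo.

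Smad7, the inhibitory feedback gene (chromosome 18, 75367529 to 75395935, GRCm38), stood at 25.1, 18.9, 19.7, 18.7 and 19.3 rescaled CPM in placebo libraries 1 to 5 and at 14.5, 17.6, 14.5, 16.4 and 13.8 in osimertinib libraries 1 to 5. All 5 osimertinib libraries lay below the lowest placebo library, and placebo library 1 stood above the other 4 of its group. The means were 20.3 ± 2.70 (SD, n = 5) and 15.4 ± 1.55 (n = 5), a log2 fold change of -0.39 ± 0.11 (SE, 95% interval -0.63 to -0.15) with a limma adjusted p of 0.0338. In the deposited CPM the values overlapped, at 8.73 to 26.4 in placebo and 14.1 to 21.4 in osimertinib, and the fold change was -0.11 ± 0.31 (adjusted p = 0.877). Leaving out placebo library 1, placebo library 2, or osimertinib library 1, 3 or 5 ended the rescaled call, at adjusted p of 0.0505 to 0.0893, with the fold change between -0.44 and -0.31 over the 10 fits that each left out 1 library. With a score of atrial markers as a covariate it was -0.44 ± 0.10 (limma adjusted p = 0.00473). That fit called 4888 of the 12350 tested genes, against 2574 in the reported fit, so the lower adjusted p is not particular to Smad7.

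Several endothelial and platelet markers were also lower in osimertinib, none of them called in the deposited CPM. All 9 endothelial markers had fold changes below 0 and 2, Tie1 (-0.38 ± 0.12, adjusted p = 0.0454) and Egfl7 (-0.76 ± 0.21, adjusted p = 0.0316), passed, with summed levels of 1490 to 2250 in placebo and 1300 to 1670 in osimertinib. Of 4 platelet and megakaryocyte markers tested 3 fell, Itga2b, Ppbp and Gp1bb, to low osimertinib means of 1.71, 0.887 and 0.798 rescaled CPM. The other, Pf4, had the highest mean of the 4 and differed little, at 7.95 in placebo and 8 in osimertinib (0.03 ± 0.19, adjusted p = 0.913). Like Tie1 and Egfl7, these 4 are named after their values were seen. The list sums overlapped, at 11 to 21.6 in placebo and 8.52 to 14.2 in osimertinib. No marker of either list was at 0 in all 10 libraries. Deviations of Smad7 from its group means had a Pearson r of 0.39 (Spearman rho 0.12) with the endothelial list over 10 libraries. With the platelet list they ran inversely (r = -0.73, rho -0.3). They also did so with smooth muscle and pericyte markers (r = -0.73, rho -0.79) and ventricular muscle markers (r = -0.63, rho -0.54). With atrial markers r was 0.62 (rho 0.81). The part of these lists in the level of Smad7 was not tested, and in tissue RNA fewer cells of a type and less RNA per cell cannot be told apart.

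Tgfb1, the ligand that platelets, macrophages and many tissue cells make (chromosome 7, 25687002 to 25705077), was the highest of the 3 ligands. It measured 52.2, 36.8, 42.7, 45.3 and 46.1 rescaled CPM in placebo libraries 1 to 5 and 47.0, 34.9, 42.9, 30.3 and 32.4 in osimertinib libraries 1 to 5. Osimertinib library 1 lay above 4 of the placebo libraries, and the groups overlapped. The group difference was -0.26 ± 0.14 on the log2 scale (adjusted p = 0.192), and the 95% interval of -0.56 to 0.05 reaches just past 0; in the deposited CPM it was 0.02 ± 0.32, so the sign depends on the scaling.

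Tgfb2, the isoform best known from heart valve and cushion development (chromosome 1, 186622792 to 186705989), was the lowest ligand, with 28 to 134 estimated reads per library. It was at 5.45, 3.35, 3.46, 1.84 and 4.25 rescaled CPM in placebo libraries 1 to 5 and at 8.02, 5.04, 5.34, 5.33 and 4.89 in osimertinib libraries 1 to 5. Only placebo library 1 reached into the osimertinib range, and placebo library 4 was the lowest. The log2 fold change was 0.62 ± 0.22 (95% interval 0.13 to 1.11, adjusted p = 0.066) and 0.87 ± 0.30 in the deposited CPM (adjusted p = 0.065). All 5 osimertinib libraries lay above the placebo mean. Fits that left out 1 library gave 0.43 to 0.76, and none called it.

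Tgfb3, the ligand of fibroblasts and other mesenchymal cells (chromosome 12, 86056745 to 86079041), did not separate the groups. Placebo libraries ran from 13.4 to 24.4 rescaled CPM (median 18.9) and osimertinib libraries from 14.3 to 27.7 (median 18.6). Its fold change of 0.01 ± 0.19 (95% interval -0.41 to 0.42, adjusted p = 0.982) turned sign when any of 4 libraries was left out. The highest value belonged to osimertinib library 4, which also had the highest fibroblast and atrial marker levels of the 10.

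Set per kilobase of exon, the 3 ligand messages had the same order of means in both groups, with Tgfb1 at 8.85 ± 1.10 (SD) rescaled CPM per kilobase in placebo and 7.44 ± 1.42 in osimertinib, Tgfb3 at 5.59 ± 1.26 and 5.65 ± 1.56, and Tgfb2 at 0.634 ± 0.228 and 0.989 ± 0.224. As a share of the ligand total per kilobase, Tgfb2 held 5.34%, 4.53%, 4.08%, 2.40% and 4.30% in placebo libraries 1 to 5 and 8.42%, 7.03%, 6.18%, 6.09% and 7.34% in osimertinib libraries 1 to 5. Each osimertinib share was above each placebo share. The share rests on the same values as the ratio of Tgfb2 to Tgfb1 given below and is not a separate result. Of all tested genes, 4.93% had a ratio to Tgfb1 that was higher in every osimertinib library than in any placebo library. Tgfb1 went from 59.0% ± 5.29 to 53.0% ± 7.46 and Tgfb3 from 36.8% ± 4.54 to 40.0% ± 8.00, with overlap in both.

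**Figure D2:**
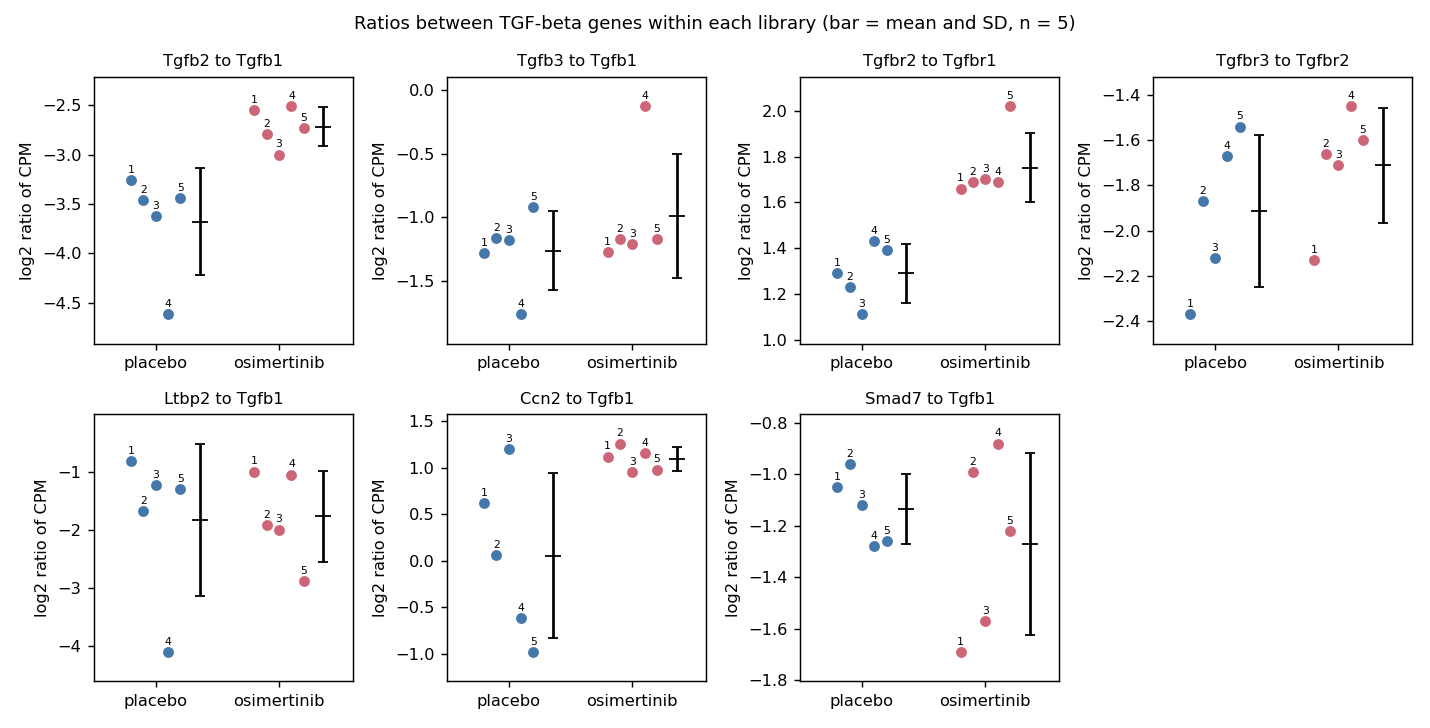
Log2 ratios of deposited CPM between pairs of genes within each library, with the library number above each point and the mean and SD (n = 5) as a bar. Tgfb2 to Tgfb1 and Tgfbr2 to Tgfbr1 are the 2 panels of 7 in which the groups do not overlap; the vertical axes differ and do not start at 0.

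A ratio of 2 genes in 1 library is the same under either scaling, and 7 such ratios were set out as description, with no test. The log2 ratio of Tgfb2 to Tgfb1 was -3.26, -3.46, -3.62, -4.62 and -3.44 in placebo libraries 1 to 5 and -2.55, -2.79, -3.00, -2.51 and -2.73 in osimertinib libraries 1 to 5. The groups did not overlap, and the means differed by 0.96. Among all tested genes 4.93% had a ratio to Tgfb1 that was higher in every osimertinib library than in any placebo library, and 0.413% one that was lower. Tgfb3 to Tgfb1 overlapped, at -1.26 ± 0.31 (SD, n = 5) in placebo and -0.99 ± 0.48 in osimertinib, as did Ltbp2 to Tgfb1 and Smad7 to Tgfb1.

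The receptors differed from one another in the same way. Tgfbr2, the type II receptor that binds ligand first (chromosome 9, 116084293 to 116175360), was at 38.9, 38, 29.4, 30.2 and 31.3 rescaled CPM in placebo libraries 1 to 5 and at 42.7, 39.2, 37.7, 46.8 and 36.6 in osimertinib libraries 1 to 5. The osimertinib libraries were all above the placebo mean, with placebo libraries 1 and 2 inside their range. The log2 fold change was 0.27 ± 0.12 (adjusted p = 0.102) and 0.55 ± 0.32 in the deposited CPM (adjusted p = 0.322).

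Tgfbr1, the type I receptor kinase (chromosome 4, 47353222 to 47414931), ran the other way in its mean but overlapped. Placebo libraries 1 to 5 held 15.9, 16.2, 13.6, 11.2 and 11.9 rescaled CPM and osimertinib libraries 1 to 5 held 13.5, 12.1, 11.6, 14.4 and 9.01. Its fold change was -0.18 ± 0.15 (adjusted p = 0.397), and 0.09 ± 0.32 in the deposited CPM. The log2 ratio of Tgfbr2 to Tgfbr1 lay between 1.11 and 1.43 in placebo and between 1.66 and 2.02 in osimertinib. Those ranges did not touch, the means differed by 0.46, and 2.31% of all tested genes had a ratio to Tgfbr1 that was higher in every osimertinib library and 2.18% one that was lower.

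Tgfbr3, or betaglycan, the co-receptor that presents ligand and above all TGF-beta 2 to the type II receptor (chromosome 5, 107106570 to 107289629), measured 7.51, 10.4, 6.77, 9.48 and 10.8 rescaled CPM in placebo libraries 1 to 5. Osimertinib libraries 1 to 5 measured 9.76, 12.4, 11.5, 17.1 and 12.1. Libraries 2 to 5 of osimertinib were above every placebo library, and osimertinib library 1 was inside the placebo range. The fold change was 0.46 ± 0.17 (95% interval 0.10 to 0.82, adjusted p = 0.0644), 0.73 ± 0.31 in the deposited CPM (adjusted p = 0.137), and passed without osimertinib library 1 (0.54, adjusted p = 0.0413). Tgfbr3 to Tgfbr2 overlapped, with a mean log2 ratio of -1.91 ± 0.34 in placebo and -1.71 ± 0.25 in osimertinib; of all tested genes, 0.267% had a ratio to Tgfbr2 that was higher, and 21.9% one that was lower, in every osimertinib library.

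**Figure D3:**
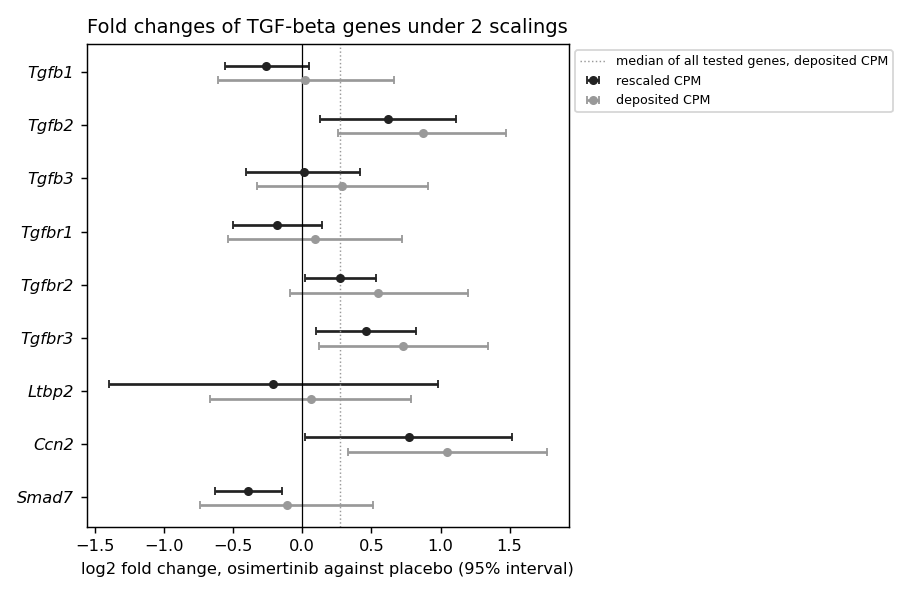
Log2 fold changes of the 9 genes with 95% intervals, from rescaled CPM (black) and deposited CPM (grey); the dotted line is the median of all tested genes in the deposited CPM, at 0.27. Smad7 is the only gene called, in rescaled CPM. Tgfb2, Tgfbr3 and Ccn2 have intervals above 0 under both scalings without passing the adjusted test. The deposited intervals of Tgfb2 (0.26 to 1.47) and Tgfbr3 (0.12 to 1.34) include the dotted line, and that of Ccn2 (0.33 to 1.77) lies above it.

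Ccn2, the matricellular response gene (chromosome 10, 24595442 to 24598683), had the highest level per kilobase of the 9. Its values were 80.1, 38.4, 98.3, 29.4 and 23.3 rescaled CPM in placebo libraries 1 to 5 and 102, 83.6, 83.1, 67.9 and 64.0 in osimertinib libraries 1 to 5. Placebo libraries fell into a high pair, 1 and 3, inside the osimertinib range, and a low set, 2, 4 and 5, below it; the highest placebo library was 4.21 times the lowest, against 1.59 times in osimertinib. The log2 fold change was 0.77 ± 0.34 (95% interval 0.02 to 1.52, adjusted p = 0.121) and 1.05 ± 0.36 in the deposited CPM (adjusted p = 0.0611). It passed without placebo library 3 (1.04, adjusted p = 0.0314) and was 0.53 without placebo library 5. Relative to Tgfb1 its log2 ratio was 0.06 ± 0.89 (SD, n = 5) in placebo and 1.10 ± 0.13 in osimertinib, with overlap through placebo library 3. The libraries were strand-specific, per the design text; had the count ignored strand it could hold reads of Gm15270, which lies on the opposite strand and shares 23.24% of the Ccn2 exon bases.

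Ltbp2, an elastic fibre protein of the latent TGF-beta binding family that, unlike its relatives, is not known to bind the latent complex itself (chromosome 12, 84783212 to 84876532), varied most. It was at 29.8, 11.5, 18.3, 2.63 and 18.8 rescaled CPM in placebo libraries 1 to 5 and at 23.6, 9.31, 10.8, 14.7 and 4.40 in osimertinib libraries 1 to 5. The placebo range spanned 11.3 times and contained all osimertinib values. Its fold change of -0.21 ± 0.55 (adjusted p = 0.806) has a 95% interval from -1.40 to 0.98, the widest of the 9, and it was 0.06 ± 0.37 in the deposited CPM.

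Per kilobase of exon the placebo means, in rescaled CPM, ran from Ccn2 (18.8 ± 11.6 SD) through Tgfb1 (8.85), Tgfb3 (5.59 ± 1.26), Smad7 (4.5 ± 0.597), Tgfbr2 (4.10 ± 0.553), Tgfbr1 (2.11 ± 0.347), Ltbp2 (1.98 ± 1.22) and Tgfbr3 (1.37 ± 0.271) to Tgfb2 (0.634). Neighbours that overlapped in placebo were Ccn2 and Tgfb1, Tgfb3 and Smad7, Smad7 and Tgfbr2, Tgfbr1 and Ltbp2, and Ltbp2 and Tgfbr3. In osimertinib Smad7 (3.40 ± 0.344) ranged below Tgfbr2 (4.96 ± 0.507), 3.06 to 3.88 against 4.47 to 5.71. Ccn2 (28.0 ± 5.28) there lay above Tgfb1 in all libraries.

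**Figure D4:**
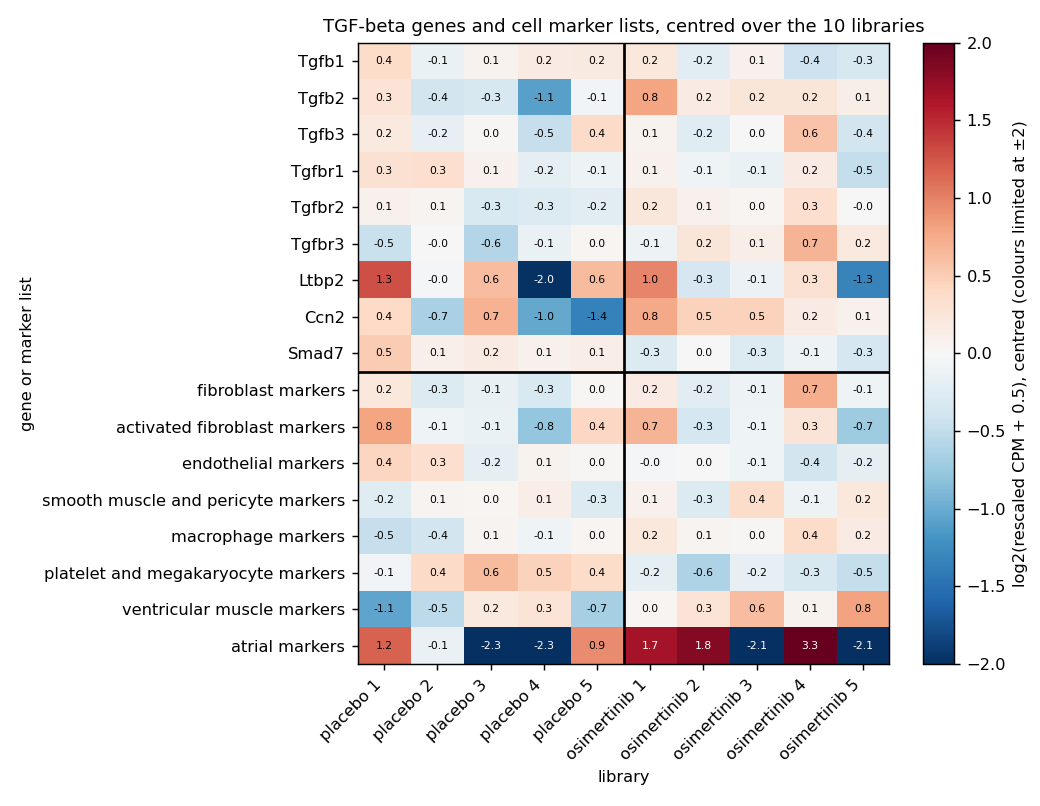
Log2(rescaled CPM + 0.5) of the 9 genes (above the line) and mean log2 level of 8 cell marker lists (below), each centred over the 10 libraries; red is above and blue below the row mean. Ltbp2 follows the activated fibroblast row, with low values in placebo library 4 and high values in placebo library 1 and osimertinib library 1. Tgfb2 shares the low value in placebo library 4 and the high value in osimertinib library 1. In osimertinib library 5 Tgfb2 is at 0.12 and the activated fibroblast row at -0.71.

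Within groups the 9 genes did not vary as one. Pearson correlations of deviations from the group means, over 10 libraries and given as description, were highest for Tgfb2 with Ltbp2 (r = 0.92, Spearman rho 0.95), Tgfbr1 with Tgfbr2 (0.85, rho 0.83) and Tgfb3 with Ltbp2 (0.76, rho 0.84). They were lowest for Tgfbr3 with Ccn2 (-0.78, rho -0.77) and Tgfbr3 with Tgfb1 (-0.64, rho -0.59). All genes of a library share its scaling factor and tissue make-up. Activated fibroblast markers (Postn, Acta2, Fap, Ddah1, Thbs4 and Comp) ran closest to Ltbp2 (r = 0.93), Tgfb2 (0.91) and Tgfb3 (0.79), and resident fibroblast markers closest to Tgfb3 (0.87). That activated list had 0 of 6 tested genes called, and its summed levels of 116 to 272 in placebo and 113 to 245 in osimertinib overlapped. Against ventricular muscle markers Tgfbr2 (-0.82), Tgfb2 (-0.78) and Ltbp2 (-0.74) ran inversely. With atrial markers r was 0.75 for Tgfbr2, 0.68 for Tgfbr1, 0.66 for Tgfb3, 0.62 for Smad7 and 0.6 for Ltbp2. It was 0.52 for Tgfb2, 0.38 for Tgfbr3 and -0.04 for both Tgfb1 and Ccn2. Over the marker lists Ccn2 ranged from -0.23 to 0.32. Between the groups, resident fibroblast markers summed to 1140 to 1850 rescaled CPM in placebo and 1720 to 4220 in osimertinib, with 1 of 10 higher and 1 lower. Most of that sum was Gsn, the called rise, at a mean of 878 and 1690; Col6a3 was the called fall, and both are named after their values were seen. The mean log2 level of the list overlapped, at 5.53 to 6.05 in placebo and 5.62 to 6.56 in osimertinib. Macrophage markers summed to 156 to 228 and 223 to 296, with 2 of 9 higher and 0 lower, and smooth muscle and pericyte markers to 483 to 755 and 585 to 935, with 0 of 9 called. None of these markers' part in the 9 genes' levels was tested.

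The genes most like each of the 9, by the same correlation among tested genes of at least 5 rescaled CPM with a name that is not a clone or model number, were these. For Tgfb1 they were Nfkb2 (r = 0.928), Rnf2 (0.926) and Rrp36 (0.906), for Tgfb2 Btg3 (0.929), Ltbp2 (0.923) and Thbs4 (0.916), and for Tgfb3 Frzb (0.966), Ptgis (0.960) and Tmem98 (0.953). Tgfbr1 ran with Fn1 (0.960) and Zmiz1 (0.957), Tgfbr2 with Naalad2 (0.955) and Hnrnpul1 (0.948), and Tgfbr3 with Nedd4l (0.961), Nfatc2 (0.931) and Cldn12 (0.925). Ltbp2 was nearest to Postn, the periostin gene of activated fibroblasts (0.988), Col5a2 (0.947) and Cdr2l (0.947). Ccn2 was nearest to Emp1 (0.991), Enah (0.931) and Fosl2 (0.930), and Smad7 to Itpr2 (0.916), Dnajc13 (0.895) and Smad2 (0.881). The rank correlation of Smad7 was only 0.661 with Itpr2 and 0.527 with Dnajc13. Among the neighbours named here only Nfkb2 passed the group test (-0.34, adjusted p = 0.0384).

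The other genes of the pathway were counted in 6 lists. Of 123 tested, 10 rose and 6 fell, against 10.4% and 10.5% of all tested genes; in the deposited CPM 5 rose and 0 fell, with none lower at an adjusted limma p under 0.05. Leaving out 1 library gave 3 to 10 higher and 1 to 8 lower, the lowest of both without osimertinib library 3.

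Of 23 latency and activation genes, 4 rose and 1 fell, and the list median was 0.12 against 0.01 for all tested genes. Itgb5, a partner of the alpha v integrin that pulls TGF-beta free, went from 55.9 ± 4.86 (SD, n = 5) to 80.4 ± 8.68 rescaled CPM (log2 fold change 0.52 ± 0.11, limma adjusted p = 0.0147), and Itgb6, another such partner, from 3.35 ± 1.14 to 5.29 ± 1.17 (0.61 ± 0.20, adjusted p = 0.0469). Pcsk6, a proprotein convertase, rose by 0.57 ± 0.13 (adjusted p = 0.0187). Bmp1, the protease that trims procollagens and cuts latent TGF-beta binding protein, fell from 96.8 ± 11.7 to 57.9 ± 15.5 (-0.77 ± 0.17, adjusted p = 0.0178). Mmp9, picked after its values were seen, was called at 0.66 ± 0.22 (adjusted p = 0.049) with a placebo mean of only 0.679. The calls of Pcsk6 and Bmp1 were lost without osimertinib library 3 (adjusted p = 0.0578 and 0.053), and that of Itgb6 in all fits without 1 library but those without placebo library 2 or osimertinib library 1 (up to 0.123).

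Co-receptors and receptor regulators had 3 of 13 higher and 1 lower, with a median of -0.17. Bambi, a decoy type I receptor, rose from 6.94 ± 1.6 to 12.2 ± 2.07 rescaled CPM (0.78 ± 0.17, adjusted p = 0.0161) and also passed in the deposited CPM (1.05, adjusted p = 0.0228). Strap, a receptor-binding protein, was at 0.50 ± 0.16 and Zfyve9, the anchor that brings Smads to the receptor, at 0.35 ± 0.11. Acvrl1, the endothelial type I receptor ALK1, fell from 77.8 ± 3.55 to 57.5 ± 5.64 (-0.44 ± 0.10, adjusted p = 0.0177). Without osimertinib library 3 Acvrl1 was no longer called (0.0547). Of the 10 fits without 1 library, Strap held in 3, those without placebo library 3 or osimertinib library 1 or 4. Zfyve9 held without osimertinib library 1 (0.0258), stood at the threshold without placebo library 5 (0.05 after rounding) and was lost in the other 8 (up to 0.126).

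Smads, their partners and feedback genes had 2 of 24 higher, none lower and a median of -0.05. The ubiquitin ligase gene Wwp1 went from 15.2 ± 3.31 to 24.3 ± 5.38 rescaled CPM (0.65 ± 0.17, adjusted p = 0.0252, and 0.93 in the deposited CPM, adjusted p = 0.048), and Ppm1a, a phosphatase of Smad2 and Smad3, from 35.3 ± 4.03 to 51.3 ± 9.61 (0.52 ± 0.14, adjusted p = 0.0285). Ski, a Smad corepressor, was at -0.14 ± 0.13 and Usp4, a deubiquitinase of the type I receptor, at 0.16 ± 0.10; neither passed. Wwp1 and Ppm1a were no longer called once placebo library 1, placebo library 2, or osimertinib library 3 or 5 was left out, nor Ppm1a once osimertinib library 2 was (adjusted p up to 0.0801). In the TAK1 branch, the kinase route that runs beside the Smads, 1 of 11 fell, the adaptor Tab1 (-0.47 ± 0.15, adjusted p = 0.0464), a call held without placebo library 3 or osimertinib library 1 or 4 and lost in the other fits without 1 library (up to 0.104). The kinase Map3k7 (-0.32 ± 0.13, adjusted p = 0.0833), Mapk14 (-0.13 ± 0.11) and Map2k3 (-0.09 ± 0.11) did not pass.

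**Figure D5:**
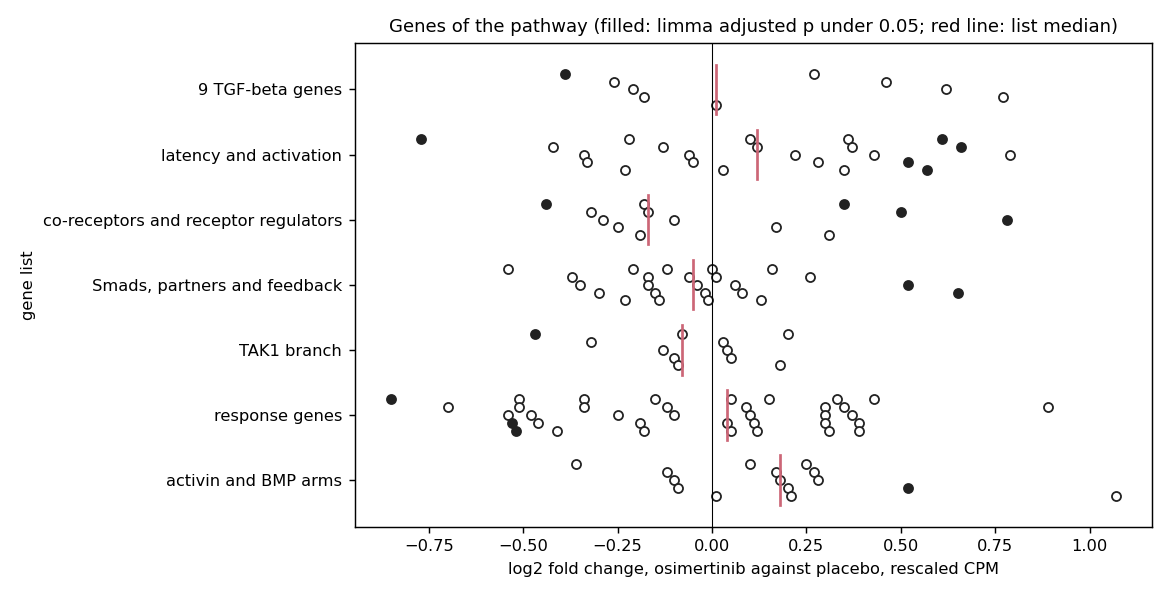
Log2 fold changes in rescaled CPM of the 9 genes and of the 6 other pathway lists, 1 point per tested gene; filled points passed limma at an adjusted p under 0.05 and the red line is the list median. All 3 filled points among the response genes lie below 0, at -0.85, -0.53 and -0.52.

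Response genes had 0 of 37 higher and 3 lower, with a median of 0.04. Id1 and Id3, inhibitors of helix-loop-helix factors that answer mainly to the BMP and ALK1 arm, fell from 132 ± 19.5 to 72.8 ± 12.0 rescaled CPM (-0.85 ± 0.14, adjusted p = 0.00999) and from 143 ± 8.87 to 99.4 ± 15.2 (-0.53 ± 0.12, adjusted p = 0.0173). Pdgfb, a growth factor of endothelial cells and platelets, fell by 0.52 on the log2 scale (adjusted p = 0.0461). Sparc, a matrix glycoprotein and the most abundant uncalled gene of the list, was at -0.46 ± 0.18 (adjusted p = 0.0783), and Postn, the periostin gene, at -0.34 ± 0.48 (adjusted p = 0.632). The endothelial and platelet marker levels given beside Smad7 stand beside these genes too, and their part was not tested. Id3 was lost without osimertinib library 3 (0.0526), and Pdgfb held without placebo library 2 or 3 and was lost in the other 8 fits without 1 library (up to 0.108).

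The activin and BMP arms had 1 of 15 tested genes higher and none lower, with a median of 0.18. Bmpr1a, a type I BMP receptor, rose from 13.6 ± 1.29 to 19.7 ± 1.43 rescaled CPM (0.52 ± 0.10, adjusted p = 0.0132). Its partner Bmpr2 was at 0.20 ± 0.11, the BMP-arm Smad5 at -0.09 ± 0.09 and the follistatin-like Fstl1 at 0.28 ± 0.17, none of which passed. Itgb5, Bambi, Id1 and Bmpr1a were called in each of the 10 fits without 1 library. Of these 4 only Bambi was also called in the deposited CPM, where Thbs2, Ccn5 and Gdf15, picked after their values were seen, were the further rises beside Wwp1.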

How the data were processed

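Poly(A)-selected RNA of left ventricle was sequenced in 10 samples, and groups and numbers come from the sample titles. The deposited values are CPM, which the authors scaled to a total of 1000000 per library, per the file headers and column sums. Per the design text, STAR and RSEM were run on GRCm38 and limma with voom was used; the submitters' processing notes instead name cutadapt 1.9, HISAT2 2.0.4, StringTie 1.3.4d, DESeq2 and hg38, so which route made the table is unsure. Libraries were strand-specific, per the design text; the strand setting of the counting and the annotation release are not stated there.

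Genes at 1 CPM or more in at least 5 of 10 libraries were tested (12350). Libraries were divided by their median ratio to the geometric mean library (0.4524 for placebo library 5, 0.9215 to 1.338 for the others), because the deposited CPM carry no factor between libraries. The test was limma 3.58.1 in R 4.3.3 with a mean-variance trend on log2(rescaled CPM + 0.5); fold changes are on that scale and understate changes of low genes. The prior had 4.45 degrees of freedom (72.9 in the deposited CPM). The fit was tested on simulated data. One read was taken as the commonest low value; of values under 200 reads, 90.74% to 93.35% were whole within 0.01 read, so no count test was run, only voom on estimated reads. Gene positions and exon lengths come from GENCODE M21 (GRCm38), promoters from RefSeq. Whether replicate numbers pair the samples is unsure. Correlations of same-numbered deviations ran from -0.339 to 0.464, and 3 of 5 placebo libraries matched their own number best. The reported fit used no pairing.

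The 9 genes and the lists were chosen with earlier results of these data known. The text names the 9 genes, up to 4 genes per pathway list (called genes by p, then by level; genes outside this rule are marked as picked after their values were seen), and the 3 genes most correlated with each of the 9, of which some are not reported here. Alternatives were other scalings, pseudocounts of 0.1 and 2, no filter or a mean of 5 CPM, voom, array weights, a replicate block, an atrial covariate and leaving out each library.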

Additional observations from a re-analysis of the deposited data

Results flagged for a closer look

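In 2 of the 18 groups of 5 values (9 genes in 2 groups), 1 library stood apart from the other 4 by Dixon's test at the 95% level; chance flags about 1 group in 20. For Tgfb2 it was osimertinib library 1, at 8.02 rescaled CPM against 4.89 to 5.34 in the other 4. For Smad7 it was placebo library 1, at 25.1 against 18.7 to 19.7, and without that library the Smad7 call was lost (log2 fold change -0.31, limma adjusted p = 0.0806).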

How the results depend on the processing

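Tgfbr2 kept its sign and stayed uncalled in all 22 alternatives (log2 fold change 0.21 to 0.55). Smad7 kept its sign in all 22 but was not called in the deposited CPM (-0.11), in these without placebo library 5 (-0.37), in CPM without mitochondrial and haemoglobin genes (-0.37) or with no filter (-0.38); leaving out 1 library gave -0.44 to -0.31, with 5 of 10 fits calling it. The number of the 9 genes called lower was 0 in these 4 settings and 0 to 1 without 1 library. The number called higher was 1 with array weights (Tgfb2, 0.65), 3 with the replicate block and 0 to 1 without 1 library. With the replicate block, which the labels do not ground in shared animals (3 of 5 placebo libraries matched their own number best), Tgfb2 (0.62), Tgfbr3 (0.46) and Ccn2 (0.77) passed; without 1 library Ccn2 gave 0.53 to 1.04, Tgfb2 0.43 to 0.76 and Tgfbr3 0.35 to 0.54. In the deposited CPM the sign turned for Tgfb1 (0.02), Tgfbr1 (0.09), Ltbp2 (0.06), Ski (0.15), Map2k3 (0.19), Mapk14 (0.15) and Smad5 (0.19), as follows from its median shift of 0.27. Tgfb3 turned with quantile normalization (-0.01), the atrial covariate (-0.10) and in fits without 1 library (-0.13 to 0.11), and Ltbp2 without placebo library 1 (0.09) or osimertinib library 5 (0.10; range -0.73 to 0.10). Pathway genes called higher, 10 in the reported fit, were 5 in the deposited CPM, 3 in these without placebo library 5, 2 without mitochondrial and haemoglobin genes, 6 with no filter and 3 to 10 without 1 library. Those called lower, 6 as reported, were 0, 2 and 1 in the first 3 of these settings, 10 with quantile normalization, 10 with a mean of at least 5 CPM, 17 with the atrial covariate and 1 to 8 without 1 library. Over all genes, calls ran from 517 (without osimertinib library 3) to 4888 (atrial covariate) against 2574 as reported. Under a mean of 5 CPM Tgfb2 was not tested. The cause of other changes was not tested. Among the 9 genes depth limits Tgfb2 most, at 28 to 134 estimated reads.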
